A study of Mus musculus with 8 samples.

Results

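The genes described here are 38 genes of glucose use in the mouse heart, chosen by symbol for their known roles, out of 11704 genes in the expression table. They comprise 4 genes of glucose uptake, 16 of glycolysis, 10 of lactate and pyruvate handling and 8 of glycogen metabolism. All 38 were listed, and all 38 had a mean of at least 1 FPKM (sequenced fragments relative to the length of the transcript and the size of the library), the level at which 10025 genes were tested. The lowest group mean of any of them was 1.095 FPKM, that of Pfkfb3 in AAV-FGF17 hearts.

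The AAV-FGF17 hearts (n = 4) came from mice injected subcutaneously as newborns with an adeno-associated viral vector, serotype 9, which transduces heart muscle and other tissues, carrying mouse Fgf17, a secreted fibroblast growth factor. The control hearts (n = 4) came from mice given the control vector in the same way. All hearts were taken at 8 to 10 weeks of age, and RNA of the whole heart was sequenced. The strain, the sex and the promoter that drives Fgf17 are not given in the sources used here. The table's columns and the series title refer to sham operation and the sample labels to transduction alone, which leaves unclear if an operation had been done. The comparison asks which heart transcripts respond to Fgf17 delivered by a vector.

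Glucose enters a heart muscle cell through facilitative transporters, is trapped as glucose phosphate by hexokinase, and is then either stored as glycogen or split to pyruvate by glycolysis. Pyruvate is exchanged with lactate by lactate dehydrogenase, or is carried into the mitochondrion and oxidised by the pyruvate dehydrogenase complex, which pyruvate dehydrogenase kinases switch off. The adult heart draws most of its energy from fatty acids, takes up lactate readily, and turns to glucose and glycogen when work rises or oxygen falls.

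Fgf17 lay between 69.0 and 173 FPKM in AAV-FGF17 hearts, above every control heart. In control hearts it had 9.59, 1.43, 0.560 and 9.86 FPKM, and the source of the higher values in hearts 1 and 4 was not tested. The number of reads behind the values is unknown. Control hearts 2 and 3 stood apart from the other libraries. Mitochondrially encoded genes held 44.5% of the FPKM sum in control heart 2 and 30.9% in control heart 3, against 62.8% to 66.9% in AAV-FGF17 hearts and 64.0% and 64.1% in control hearts 1 and 4. All 8 cardiomyocyte markers were listed, and their summed level was 11578 to 12552 FPKM in AAV-FGF17 hearts. In control hearts it was 19196 and 24036 FPKM in hearts 2 and 3, and 11798 and 11492 FPKM in hearts 1 and 4. FPKM are relative to the whole library, so the changes of the genes described in detail are given with and without control hearts 2 and 3. In RNA of a whole heart, fewer cells of a type and less RNA per cell cannot be told apart.

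None of the 38 genes passed the test between AAV-FGF17 and control hearts (limma on log2(FPKM + 1), Benjamini-Hochberg adjusted over the 10025 genes, threshold 0.05), the smallest adjusted p among them being 0.495. Over all genes tested 0 passed, or 0.0%, and the smallest adjusted p of any gene was 0.248. Fgf17 did not pass either, although its levels did not overlap between the groups. A gene that differs can therefore fail this test. At an unadjusted p under 0.05, 1 of the 38 genes was lower in AAV-FGF17 hearts, Hk1, and 0 were higher. The same limit was met by 7.98% of all genes tested in the lower direction and by 1.36% in the higher direction. In 0 of the 38 genes were the AAV-FGF17 and control libraries free of overlap, against 5.64% of all genes tested, 0.998% with AAV-FGF17 above and 4.64% with AAV-FGF17 below.

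Most of the 38 genes nevertheless had a lower mean in AAV-FGF17 hearts. The log2 change, AAV-FGF17 minus control, was below 0 for 32 genes and above 0 for 6, with a median of -0.23, while the median of all genes tested was -0.12. Relative to that median gene, 30 of the 38 lay below it, where 50.0% of all genes do by construction, and their median was -0.11. In glycolysis 15 of 16 genes lay on that side, and their median was -0.17 on that scale. All 4 uptake genes lay below it with a median of -0.13, and 7 of 10 lactate and pyruvate genes did with a median of -0.08. Glycogen genes were split, 4 above and 4 below, with a median of -0.01.

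**Figure D1:**
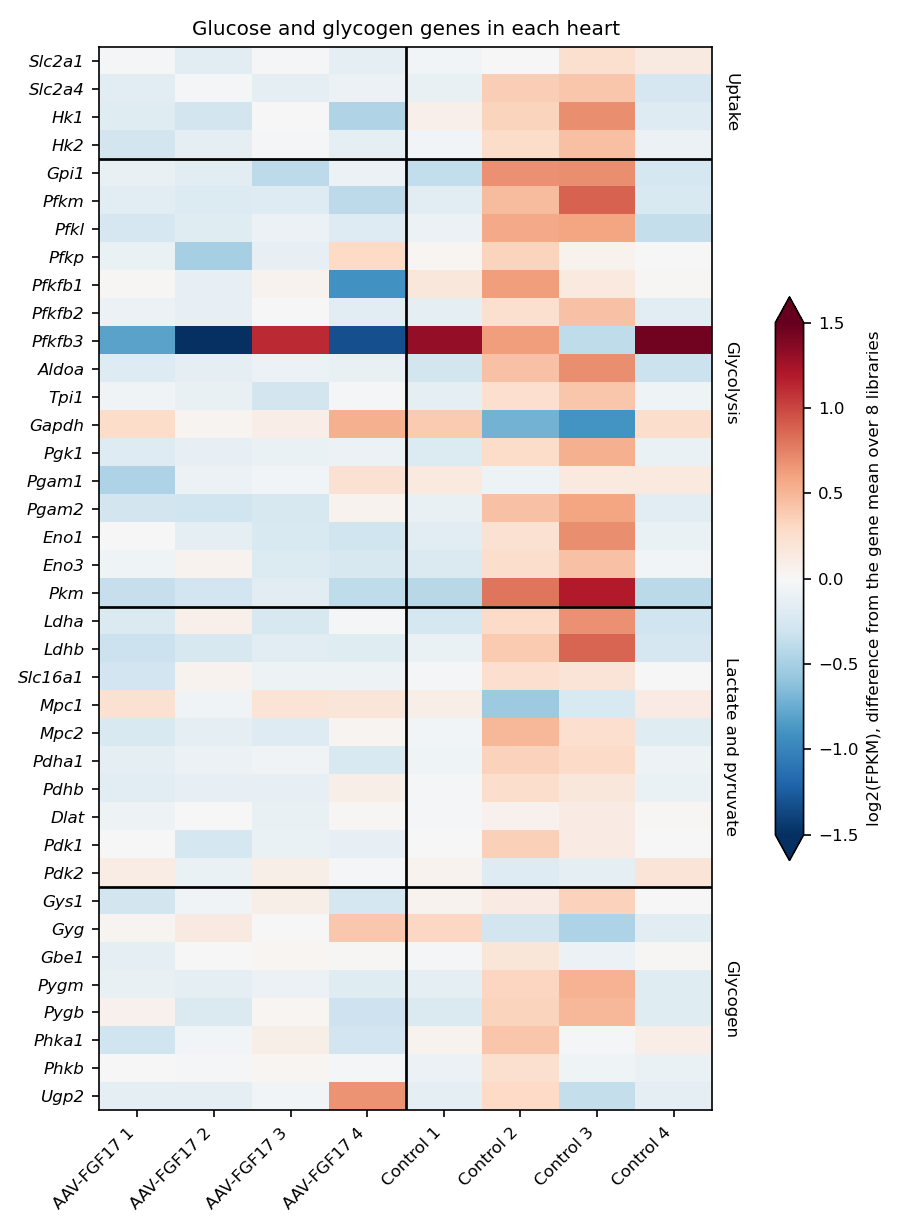
Each row is 1 of the 38 genes and each column 1 heart, AAV-FGF17 hearts left of control hearts; colour gives log2(FPKM) minus the gene's mean over the 8 libraries, and values beyond 1.5 in size take the end colour. Control hearts 2 and 3 are the red columns in most rows and the blue ones for Gapdh, Mpc1 and Gyg, while Pfkfb3 varies most from heart to heart.

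Most of this difference lay in control hearts 2 and 3. They were the 2 highest of the 8 libraries for 25 of the 38 genes (65.8%), against 36.0% of all genes tested, and the 2 lowest for 4 genes, Gapdh, Mpc1, Pdk2 and Gyg (10.5%), against 6.76% of all genes tested. Without them the median change was -0.03, or -0.01 relative to the median gene, with 15 genes above 0 and 23 below. Control hearts 1 and 4 were then the only controls. Over the 38 genes they were the most alike of all pairs of hearts, so the spread in that fit may be too small. The adjusted threshold was then passed by 0 of the 38 genes and 0.0609% of all genes. At an unadjusted p under 0.05 there were 1 higher gene, Aldoa, and 1 lower gene, Pfkfb3, against 2.26% and 2.39% of the 9852 genes tested without those hearts. The summed cardiomyocyte markers and the mitochondrial share moved with these values, and their part in the result was not tested. Leaving out control heart 1 alone gave 9 lower genes and 2 higher at an unadjusted p under 0.05, where 14.7% of all genes were lower and 2.04% higher. Leaving out control heart 4 alone gave 8 lower and 0 higher, where 14.9% of all genes were lower and 2.23% higher. Leaving out any other single heart gave 0 to 3 lower genes and 0 higher, where 3.23% to 7.91% of all genes were lower and 0.815% to 1.35% higher.

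**Figure D2:**
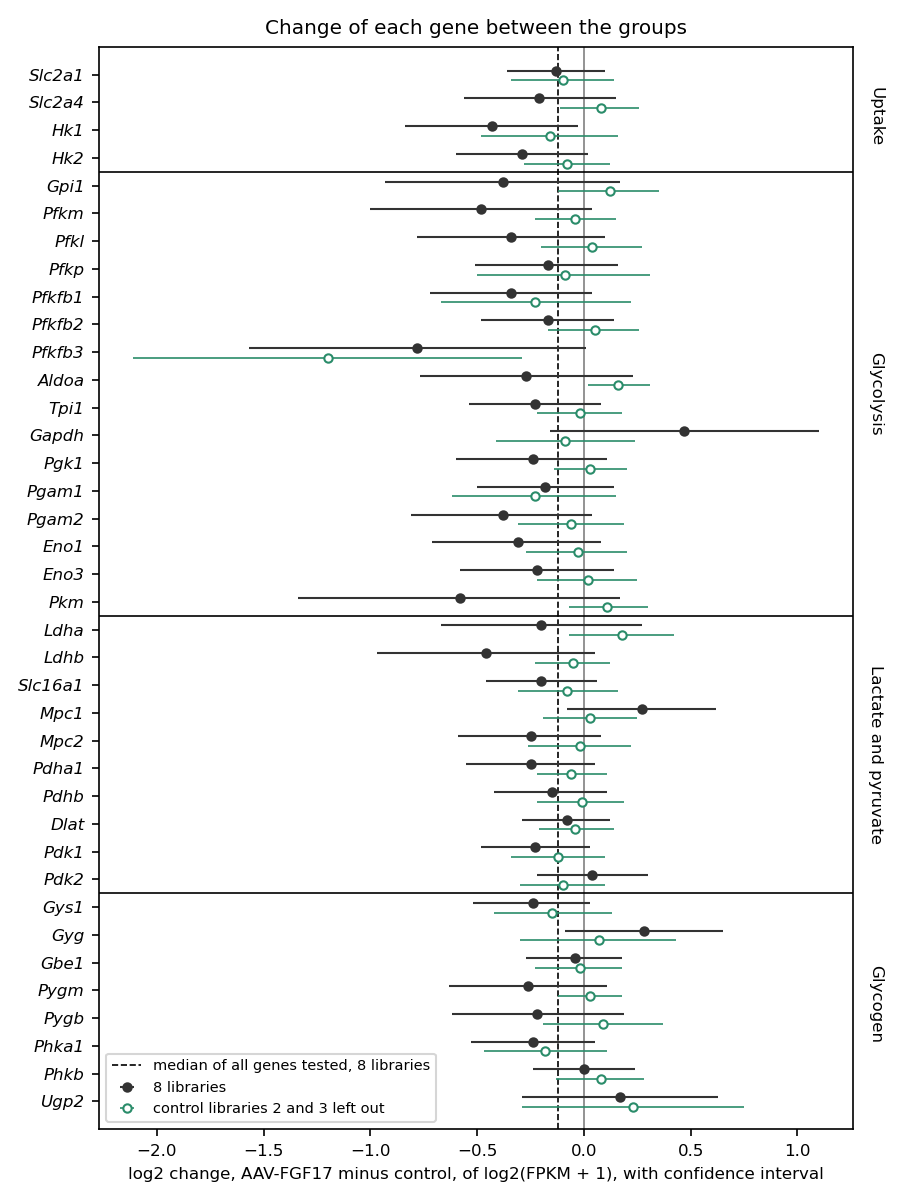
Points give the log2 change of each gene on the log2(FPKM + 1) scale, AAV-FGF17 minus control, with 95% confidence intervals from limma; filled points use all 8 libraries and open green points leave out control hearts 2 and 3, and the dashed line is the median of all genes tested with 8 libraries, -0.12. Most filled points lie left of the dashed line, and most open points lie near 0, apart from Pfkfb3 at -1.20.

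For glucose uptake, the transcripts of a pair of transporters and a pair of hexokinases were read, and uptake itself was not measured. Slc2a4, the insulin-responsive glucose transporter of muscle and fat, had 47.6, 52.8, 48.3 and 50.3 FPKM in AAV-FGF17 hearts. In control hearts it had 49.3, 69.1, 71.1 and 44.9 FPKM, so hearts 2 and 3 were the high ones and the groups overlapped. Its log2 change was -0.21 ± 0.16 (SE; limma adjusted p = 0.553), and 0.08 without control hearts 2 and 3. Slc2a1, the basal glucose transporter found in most cell types, was far lower at 3.22 to 3.58 FPKM in AAV-FGF17 hearts and 3.53 to 4.27 FPKM in control hearts, with a log2 change of -0.13, or -0.10 without control hearts 2 and 3.

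Hexokinase traps glucose in the cell. Hk2, the insulin-regulated isozyme of muscle, had 55.6, 61.5, 65.7 and 60.6 FPKM in AAV-FGF17 hearts, against 65.3, 81.4, 92.0 and 63.3 FPKM in control hearts. Only 1 AAV-FGF17 heart exceeded the lowest control hearts, and the log2 change was -0.29 ± 0.14 (SE; limma adjusted p = 0.495), or -0.08 without control hearts 2 and 3. Hk1, the isozyme of most other cell types, had 19.2, 17.97, 21.8 and 16.0 FPKM in AAV-FGF17 hearts, against 22.9, 27.4, 35.2 and 19.1 FPKM in control hearts. The groups overlapped through AAV-FGF17 hearts 1 and 3 and control heart 4.

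Hk1 (ENSMUSG00000037012.18, minus strand of chromosome 10, GRCm38 positions 62268855 to 62379908) had a log2 change of -0.43 ± 0.18 (SE), with an unadjusted limma p of 0.0374 and an adjusted p of 0.495. Without control hearts 2 and 3 the log2 change was -0.16 ± 0.14 with an unadjusted p of 0.276, and with median-of-ratios scaling it was -0.29 with an unadjusted p of 0.0661. An exon of the antisense gene Hk1os overlaps it, and whether the libraries keep strand is not given in the sources used here. Its promoters are shown because it was the 1 gene of the 38 at an unadjusted p under 0.05. These are the 250 bases before each start in the RefSeq annotation of GRCm38.p6, 5′ to 3′ on the gene's strand, with matches to the letters of 4 motifs in capitals: CACGTG (E-box), ACGTG or GCGTG (core of the hypoxia response element), AAGGTCA (binding site of estrogen-related receptors) and GGGCGG (GC box), on either strand.
Hk1 start 1, chr10:62379909-62380158 (- strand): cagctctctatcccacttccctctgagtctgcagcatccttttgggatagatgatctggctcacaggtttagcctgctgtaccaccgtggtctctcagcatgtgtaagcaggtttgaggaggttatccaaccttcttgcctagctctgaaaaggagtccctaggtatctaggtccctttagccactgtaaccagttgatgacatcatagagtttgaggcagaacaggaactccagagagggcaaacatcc
Hk1 start 2, chr10:62340422-62340671 (- strand): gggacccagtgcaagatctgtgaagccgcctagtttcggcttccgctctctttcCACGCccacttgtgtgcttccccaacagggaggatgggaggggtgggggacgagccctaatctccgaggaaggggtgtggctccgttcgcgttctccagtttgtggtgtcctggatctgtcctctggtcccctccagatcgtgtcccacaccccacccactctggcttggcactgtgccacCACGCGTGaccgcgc
The window of the first start holds none of the 4 motifs, and that of the other holds 3 matches to the hypoxia response core, of which a pair overlap.

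**Figure D3:**
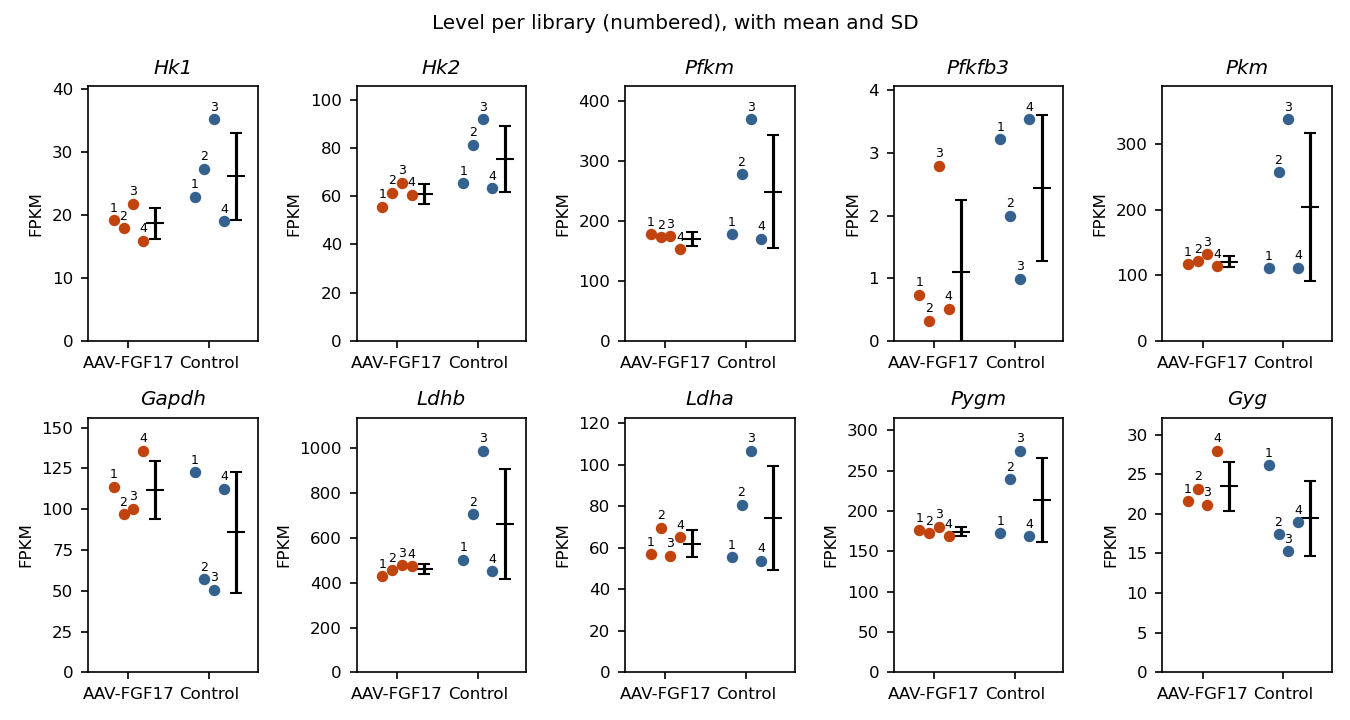
Points give the FPKM of each numbered heart for 10 genes, AAV-FGF17 in orange left of control in blue, with the group mean and SD beside them; the axes start at 0. Control hearts 2 and 3 are the highest points for Hk1, Hk2, Pfkm, Pkm, Ldhb, Ldha and Pygm and the lowest for Gapdh and Gyg, and AAV-FGF17 heart 3 stands above the other AAV-FGF17 hearts for Pfkfb3.

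Glycolysis begins with Gpi1, glucose phosphate isomerase, and the phosphofructokinases, which set its pace. Pfkm, the muscle phosphofructokinase, had 177, 173, 175 and 153 FPKM in AAV-FGF17 hearts, and 178, 278, 369 and 170 FPKM in control hearts. The AAV-FGF17 hearts and control hearts 1 and 4 lay close together, and the log2 change of -0.48 ± 0.23 (SE; limma adjusted p = 0.495) became -0.04 without control hearts 2 and 3. Exons of Senp1 on the other strand and of a predicted gene overlap Pfkm. Pfkl, the liver-type isozyme, ranged from 11.5 to 12.8 FPKM in AAV-FGF17 hearts and 10.7 to 20.6 FPKM in control hearts. Pfkp, the platelet-type isozyme, ranged from 3.85 to 6.69 FPKM in AAV-FGF17 hearts and 5.42 to 6.84 FPKM in control hearts. Gpi1 ranged from 38.2 to 47.0 FPKM in AAV-FGF17 hearts and 38.9 to 81.3 FPKM in control hearts, and control hearts 2 and 3 averaged 1.89 times the other 6 hearts for both Gpi1 and Pfkm.

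The bifunctional Pfkfb enzymes make and remove the small sugar phosphate that activates phosphofructokinase. Pfkfb3, the isozyme with the strongest kinase activity, is induced by hypoxia and growth signals, and it had the lowest level and the most negative log2 change of the 38 genes. It had 0.739, 0.324, 2.799 and 0.517 FPKM in AAV-FGF17 hearts, against 3.22, 2.001, 0.995 and 3.54 FPKM in control hearts. AAV-FGF17 hearts 1, 2 and 4 lay below all 4 control hearts, and AAV-FGF17 heart 3 lay above control hearts 2 and 3. The log2 change was -0.78 ± 0.35 (SE), with an unadjusted limma p of 0.0524 and an adjusted p of 0.495, and the adjusted p ranged from 0.353 to 0.931 over the alternatives run.

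Without control hearts 2 and 3 the log2 change of Pfkfb3 was -1.20 (95% interval -2.11 to -0.29), with an unadjusted limma p of 0.0168 and an adjusted p of 0.931. The interval and p rest on control hearts 1 and 4 alone as controls, at 3.22 and 3.54 FPKM. Pfkfb2, the heart isozyme, ranged from 6.07 to 6.73 FPKM in AAV-FGF17 hearts and 6.08 to 9.23 FPKM in control hearts. Pfkfb1, first described in liver and skeletal muscle, ranged from 1.42 to 2.75 FPKM in AAV-FGF17 hearts and 2.69 to 4.11 FPKM in control hearts. The gene Pfkfb3 (ENSMUSG00000026773.19) lies on chromosome 2 at 11471433 to 11554077, minus strand of GRCm38, and its promoters are shown because its difference had the largest size of the 38.
Pfkfb3 start 1, chr2:11553930-11554179 (- strand): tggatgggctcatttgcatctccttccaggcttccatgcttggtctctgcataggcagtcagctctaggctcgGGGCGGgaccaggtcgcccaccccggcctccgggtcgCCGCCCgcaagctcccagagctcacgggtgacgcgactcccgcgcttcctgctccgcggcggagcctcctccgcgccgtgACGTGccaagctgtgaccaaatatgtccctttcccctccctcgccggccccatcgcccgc
Pfkfb3 start 2, chr2:11502091-11502340 (- strand): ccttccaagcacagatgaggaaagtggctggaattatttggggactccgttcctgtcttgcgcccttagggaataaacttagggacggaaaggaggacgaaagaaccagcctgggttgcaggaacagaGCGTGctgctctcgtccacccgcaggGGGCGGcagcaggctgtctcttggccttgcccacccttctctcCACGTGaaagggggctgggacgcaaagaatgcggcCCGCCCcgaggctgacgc
The window of the first start holds 1 hypoxia response core and 2 GC boxes. That of the other holds 1 E-box, 2 GC boxes and 3 matches to the hypoxia response core, of which a pair lie within the E-box.

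Of the enzymes that split and oxidise the sugar, Aldoa, the muscle aldolase, ranged from 217 to 232 FPKM in AAV-FGF17 hearts and 198 to 400 FPKM in control hearts. Without control hearts 2 and 3 its log2 change was 0.16 ± 0.06 (SE), with an unadjusted limma p of 0.0341 and an adjusted p of 0.931, and with all hearts it was -0.27. That SE and p rest on control hearts 1 and 4 alone as controls, at 204 and 198 FPKM. Tpi1, triose phosphate isomerase, ranged from 74.8 to 88.5 FPKM in AAV-FGF17 hearts and 82.5 to 120 FPKM in control hearts. Pgk1, phosphoglycerate kinase, which makes ATP, ranged from 68.8 to 74.4 FPKM in AAV-FGF17 hearts and 68.2 to 114 FPKM in control hearts. Both had lower means in AAV-FGF17 hearts, and both log2 changes were within 0.03 of 0 without control hearts 2 and 3.

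Gapdh, which oxidises glyceraldehyde phosphate and often serves as a reference gene, was the 1 glycolysis gene with a positive log2 change. It had 114, 96.8, 100 and 136 FPKM in AAV-FGF17 hearts, against 123, 57.3, 50.6 and 113 FPKM in control hearts. Control hearts 2 and 3, highest for most other glycolysis genes, were the lowest here, at 0.475 times the mean of the other 6 hearts. The log2 change was 0.47 ± 0.28 (SE; limma adjusted p = 0.503) with all hearts and -0.09 without control hearts 2 and 3. Gapdh, Pkm, Aldoa and Mpc1 are given in this detail because of their values and not by the rule that chose the others. GENCODE M21 lists 168 pseudogenes that match Gapdh at 90% identity or more over at least 300 bases, and how reads shared with them were assigned is not given in the sources used here.

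Lower glycolysis carried its muscle isozymes at the highest levels of the step. Pgam2, muscle phosphoglycerate mutase, had 295, 290, 303 and 369 FPKM in AAV-FGF17 hearts, against 331, 485, 537 and 321 FPKM in control hearts, a log2 change of -0.38 ± 0.19 (SE; limma adjusted p = 0.495), or -0.06 without control hearts 2 and 3. AAV-FGF17 heart 4 was the 1 heart of its group within the range of the control hearts. Pgam1, the form of most other tissues, ranged from 16.0 to 25.8 FPKM in AAV-FGF17 hearts and 20.9 to 24.6 FPKM in control hearts. Eno3, muscle enolase, had 267, 291, 243 and 238 FPKM in AAV-FGF17 hearts, against 240, 337, 380 and 271 FPKM in control hearts, and its groups overlapped (log2 change -0.22 ± 0.16, SE; limma adjusted p = 0.538; 0.02 without control hearts 2 and 3). Eno1, the ubiquitous enolase, ranged from 10.5 to 12.9 FPKM in AAV-FGF17 hearts and 11.5 to 21.1 FPKM in control hearts.

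Pkm, the pyruvate kinase of muscle and most other tissues, differed most between control hearts 2 and 3 and the rest. It had 116, 121, 132 and 114 FPKM in AAV-FGF17 hearts, against 111, 257, 338 and 112 FPKM in control hearts. Control hearts 2 and 3 averaged 2.53 times the other 6 hearts, and control hearts 1 and 4 lay below all AAV-FGF17 hearts. The log2 change was -0.58 ± 0.34 (SE; limma adjusted p = 0.497) with all hearts and 0.11 without those 2. Pkm matches 8 pseudogenes by the same criteria. The promoters of Pkm and Gapdh are shown together, since these genes lay furthest to either side in control hearts 2 and 3.
Pkm start 1, chr9:59656326-59656575 (+ strand): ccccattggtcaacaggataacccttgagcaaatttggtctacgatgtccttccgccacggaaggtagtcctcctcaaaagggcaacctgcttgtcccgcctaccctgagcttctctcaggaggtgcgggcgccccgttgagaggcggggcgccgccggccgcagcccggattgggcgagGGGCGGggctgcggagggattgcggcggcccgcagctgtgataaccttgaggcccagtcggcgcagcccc
Pkm start 2, chr9:59656977-59657226 (+ strand): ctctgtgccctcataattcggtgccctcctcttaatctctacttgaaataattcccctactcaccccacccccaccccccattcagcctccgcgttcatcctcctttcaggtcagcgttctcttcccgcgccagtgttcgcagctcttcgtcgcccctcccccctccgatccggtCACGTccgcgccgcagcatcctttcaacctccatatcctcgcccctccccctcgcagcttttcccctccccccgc
Gapdh start 1, chr6:125165774-125166023 (- strand): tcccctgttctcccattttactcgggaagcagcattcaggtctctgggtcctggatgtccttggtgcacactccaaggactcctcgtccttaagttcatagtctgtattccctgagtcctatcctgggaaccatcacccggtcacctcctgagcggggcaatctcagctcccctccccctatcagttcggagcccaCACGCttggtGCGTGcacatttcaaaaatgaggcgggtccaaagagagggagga
The first Pkm window holds 1 GC box and the other 1 hypoxia response core, and the Gapdh window holds 2 hypoxia response cores on opposite strands.

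Lactate and pyruvate handling held the most abundant of the 38 genes. Ldhb, the lactate dehydrogenase subunit typical of the heart, had 429, 456, 477 and 475 FPKM in AAV-FGF17 hearts, against 503, 704, 988 and 451 FPKM in control hearts. Control heart 4 lay within the AAV-FGF17 range, and control hearts 2 and 3 well above it. The log2 change was -0.46 ± 0.23 (SE; limma adjusted p = 0.495), and -0.05 without control hearts 2 and 3. Ldha, the subunit typical of skeletal muscle, ranged from 56.3 to 69.8 FPKM in AAV-FGF17 hearts and 53.8 to 107 FPKM in control hearts, and matches 13 pseudogenes. Slc16a1, which carries lactate and pyruvate across the cell membrane, ranged from 45.6 to 57.6 FPKM in AAV-FGF17 hearts and 54.5 to 66.4 FPKM in control hearts.

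The mitochondrial pyruvate carrier is made of an Mpc1 and an Mpc2 subunit, whose log2 changes had opposite signs. Mpc1 had 69.8, 57.6, 68.8 and 68.0 FPKM in AAV-FGF17 hearts, against 63.8, 41.0, 51.2 and 65.1 FPKM in control hearts. In Mpc1, 3 of the 4 AAV-FGF17 hearts were above every control heart, and the log2 change was 0.27 ± 0.16 (SE; limma adjusted p = 0.497). Its unadjusted limma p was 0.114 as deposited, 0.0468 with median-of-ratios scaling (log2 change 0.42, adjusted p = 0.563; 4.6% of all genes were then higher and 3.89% lower at that limit) and 0.755 without control hearts 2 and 3. Mpc2 ranged from 14.6 to 17.6 FPKM in AAV-FGF17 hearts and 15.2 to 24.3 FPKM in control hearts, a log2 change of -0.25, or -0.02 without control hearts 2 and 3.

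Of the pyruvate dehydrogenase complex and its kinases, all 5 genes had overlapping groups. Pdha1, the catalytic alpha subunit, had 263, 274, 280 and 248 FPKM in AAV-FGF17 hearts, against 278, 369, 355 and 276 FPKM in control hearts. Only AAV-FGF17 heart 3 exceeded the lowest control hearts, and the log2 change was -0.25 ± 0.14 (SE; limma adjusted p = 0.496), or -0.06 without control hearts 2 and 3. Pdhb, the beta subunit, ranged from 91.8 to 109 FPKM in AAV-FGF17 hearts and 95.6 to 123 FPKM in control hearts. Dlat, the acetyltransferase core, ranged from 41.5 to 45.5 FPKM in AAV-FGF17 hearts and 44.1 to 48.8 FPKM in control hearts. Pdk1, a kinase that inactivates the complex and is induced by hypoxia, had 17.5, 14.5, 16.3 and 16.0 FPKM in AAV-FGF17 hearts, against 17.5, 22.3, 19.0 and 17.4 FPKM in control hearts, a log2 change of -0.23 ± 0.11 (SE; limma adjusted p = 0.495), or -0.12 without control hearts 2 and 3. Pdk2, the most widely expressed kinase of the complex, ranged from 78.3 to 90.1 FPKM in AAV-FGF17 hearts and 73.4 to 95.6 FPKM in control hearts, a log2 change of 0.04, or -0.10 without control hearts 2 and 3.

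The 8 glycogen genes had a median log2 change of -0.13 with all hearts and 0.05 without control hearts 2 and 3. On the synthesis side, Gys1, muscle glycogen synthase, had 15.5, 18.2, 19.9 and 15.6 FPKM in AAV-FGF17 hearts, against 19.5, 20.5, 23.8 and 18.8 FPKM in control hearts. AAV-FGF17 heart 3 alone exceeded the lowest control hearts, and the log2 change was -0.24 ± 0.12 (SE; limma adjusted p = 0.495), or -0.15 without control hearts 2 and 3. Gyg, glycogenin, the primer on which glycogen starts, had 21.6, 23.2, 21.2 and 28.0 FPKM in AAV-FGF17 hearts, against 26.1, 17.4, 15.3 and 18.9 FPKM in control hearts. All AAV-FGF17 hearts exceeded control hearts 2, 3 and 4, while control heart 1 exceeded 3 of them, and the log2 change was 0.28 ± 0.17 (SE; limma adjusted p = 0.501), or 0.07 without control hearts 2 and 3. Ugp2, which makes UDP-glucose, the donor for glycogen, had 74.7, 74.8, 80.6 and 132 FPKM in AAV-FGF17 hearts, against 74.7, 102, 64.7 and 74.6 FPKM in control hearts. Its groups overlapped, and its log2 change of 0.17 ± 0.21 (SE; limma adjusted p = 0.692) was -0.02 when AAV-FGF17 heart 4 was left out and 0.23 without control hearts 2 and 3. Gbe1, the branching enzyme, ranged from 11.3 to 12.7 FPKM in AAV-FGF17 hearts and 11.7 to 14.03 FPKM in control hearts.

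On the breakdown side, Pygm, muscle glycogen phosphorylase, had 177, 173, 181 and 169 FPKM in AAV-FGF17 hearts, against 173, 240, 275 and 169 FPKM in control hearts. Control hearts 1 and 4 lay within the range of the AAV-FGF17 hearts, and the log2 change of -0.26 ± 0.17 (SE; limma adjusted p = 0.513) became 0.03 without control hearts 2 and 3. Pygb, brain-type phosphorylase, which the heart also expresses, ranged from 66.7 to 86.7 FPKM in AAV-FGF17 hearts and 71.1 to 117 FPKM in control hearts. Phka1, the muscle alpha subunit of phosphorylase kinase, the enzyme that activates phosphorylase, had 6.09, 7.27, 7.98 and 6.15 FPKM in AAV-FGF17 hearts, against 7.77, 10.0, 7.37 and 8.00 FPKM in control hearts. The groups overlapped, with AAV-FGF17 hearts 1 and 4 the lowest, and the log2 change was -0.24 ± 0.13 (SE; limma adjusted p = 0.496), or -0.18 without control hearts 2 and 3. Phkb, the beta subunit of the same kinase, ranged from 5.65 to 5.85 FPKM in AAV-FGF17 hearts and 5.38 to 6.78 FPKM in control hearts, a log2 change of 0.00.

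Ratios between genes of 1 step do not move with the scaling of a library, and 18 such ratios of FPKM were compared. None had an exact p under 0.05, where the smallest p that 4 against 4 hearts allow is 0.0286, and the smallest adjusted p over the 18 was 0.386. With that limit a single ratio could not have passed after adjustment over 18, even if its groups did not overlap. On average 9 ratios were higher in AAV-FGF17 hearts and 9 lower. Where a muscle or heart isozyme was paired with another form, the muscle or heart isozyme was the more abundant in every heart. Slc2a4 made up 93.0% to 94.2% of the 2 transporters in AAV-FGF17 hearts and 91.9% to 95.0% in control hearts. Hk2 made up 74.4% to 79.2% of the 2 hexokinases in AAV-FGF17 hearts and 72.3% to 76.9% in control hearts.

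Among the ratios, Ldhb over Ldha was 7.52, 6.53, 8.47 and 7.28 in AAV-FGF17 hearts, against 9.07, 8.72, 9.25 and 8.39 in control hearts. Only AAV-FGF17 heart 3 reached the lowest control heart, and the mean log2 difference was -0.25 (two-sided exact permutation p = 0.0571, adjusted p = 0.386), close to the -0.23 found without control hearts 2 and 3. Phkb over Phka1 was 0.951, 0.777, 0.734 and 0.926 in AAV-FGF17 hearts, against 0.697, 0.676, 0.747 and 0.672 in control hearts. Control heart 3 exceeded AAV-FGF17 heart 3 alone, and the mean log2 difference was 0.27 (two-sided exact permutation p = 0.0571, adjusted p = 0.386), and 0.30 without control hearts 2 and 3. Pfkfb2 over Pfkfb3 had the difference of largest size, a log2 difference of 1.32 (exact permutation p = 0.171), and 2.19 without control hearts 2 and 3.

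Several ratios separated control hearts 2 and 3 from the rest. Mpc2 over Mpc1 was 0.593 and 0.399 in those hearts, against 0.210 to 0.269 in AAV-FGF17 hearts and 0.261 and 0.233 in control hearts 1 and 4. Pdk2 over Pdk1 was 3.29 and 4.01 in control hearts 2 and 3, against 5.15 to 5.48 in AAV-FGF17 hearts and 4.96 and 5.50 in the other control hearts. Pgam2 over Pgam1 was 23.2 and 21.96 in those hearts, against 13.96 to 18.4 in AAV-FGF17 hearts and 13.5 and 13.1 in the other control hearts. These 3 ratios were picked for their values in control hearts 2 and 3.

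**Figure D4:**
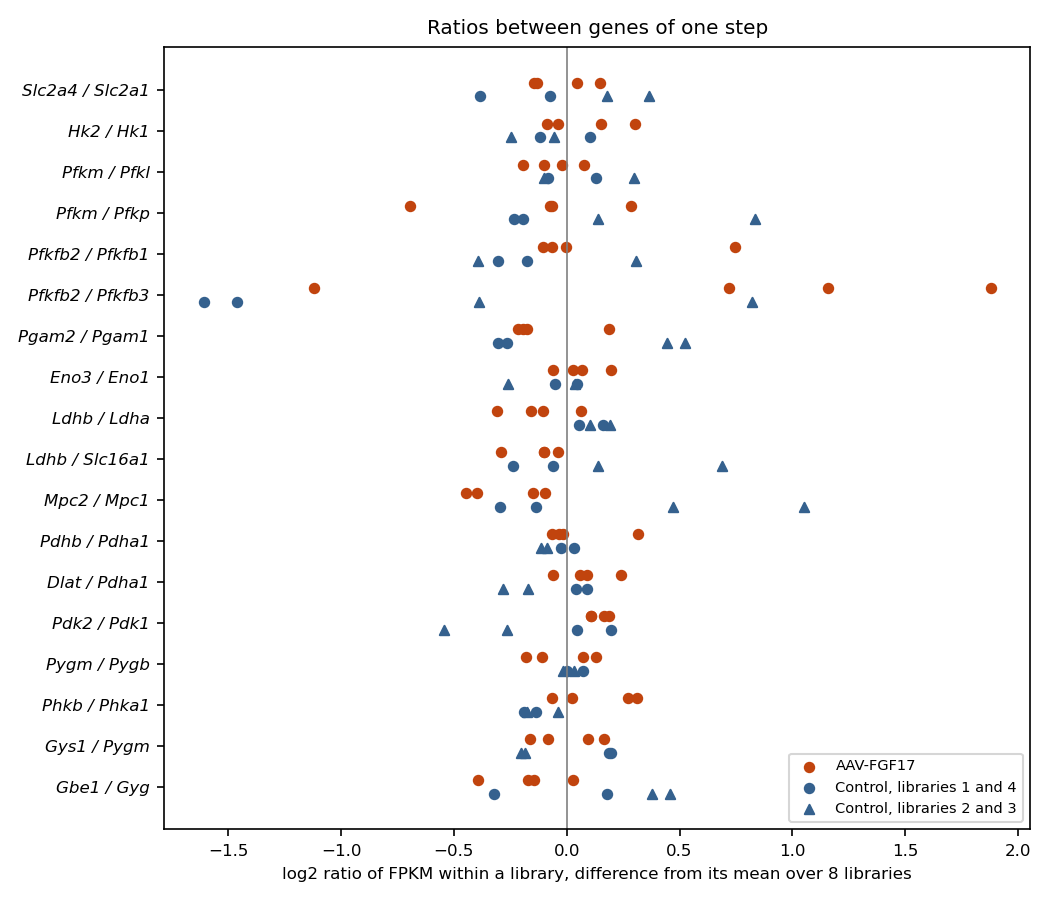
Each row is 1 of 18 ratios of FPKM within a heart, as log2 and minus its mean over the 8 hearts, with AAV-FGF17 in orange above control in blue and triangles for control hearts 2 and 3. For Ldhb over Ldha the orange points lie mostly left of the blue ones and for Phkb over Phka1 mostly right, and triangles stand apart for Mpc2 over Mpc1 and Pdk2 over Pdk1.

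Summed over the 38 genes, the share of the FPKM of nuclear genes was 1.94%, 2.04%, 1.94% and 1.93% in AAV-FGF17 hearts, against 1.99%, 2.15%, 2.21% and 1.97% in control hearts. The means were 1.96% ± 0.05 in AAV-FGF17 hearts and 2.08% ± 0.12 in control hearts (SD, n = 4 each), a difference of -0.12 percentage points, and -0.02 without control hearts 2 and 3. Glycolysis made up 0.87% to 0.94% in AAV-FGF17 hearts and 0.90% to 1.09% in control hearts. Glycogen genes made up 0.25% to 0.26% in AAV-FGF17 hearts and 0.23% to 0.25% in control hearts. The share of all FPKM, mitochondrial genes included, spread more widely, at 0.67% to 0.72% in AAV-FGF17 hearts, against 0.71% to 1.53% in control hearts.

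**Figure D5:**
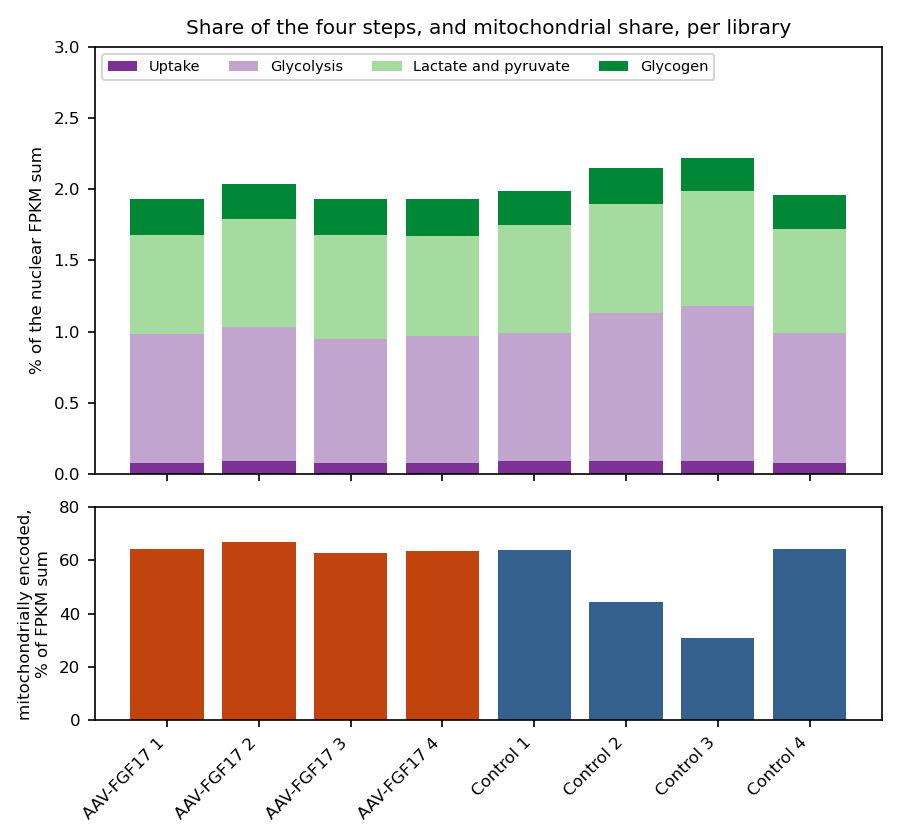
The upper bars give the 38 genes' share of the FPKM of nuclear genes in each heart, stacked by step, and the lower bars the share of all FPKM held by mitochondrially encoded genes, with AAV-FGF17 hearts left of control hearts. The upper bars stay between 1.93% and 2.21%, while the lower bars drop to 44.5% and 30.9% in control hearts 2 and 3.

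Other genes of these pathways were read from 6 lists, and 0 of their 82 tested genes passed the adjusted threshold by limma. At an unadjusted p under 0.05, 7.98% of all genes tested were lower and 1.36% higher. Among 3 tested genes of other uptake steps, 0 were higher and 0 lower at an unadjusted p under 0.05; Galm, which interconverts the anomers of sugars, had 6.98 ± 1.33 FPKM in AAV-FGF17 hearts and 7.53 ± 0.992 FPKM in control hearts (SD). Of 5 other glycolysis genes 0 were higher and 0 lower; Minpp1 had 2.92 ± 0.326 FPKM in AAV-FGF17 hearts and 3.69 ± 0.652 FPKM in control hearts, and Bpgm, bisphosphoglycerate mutase of red cells, 10.6 ± 1.10 FPKM in AAV-FGF17 hearts and 8.96 ± 1.38 FPKM in control hearts.

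Of 13 other lactate and pyruvate genes, 1 was lower and 0 higher. That gene was Pdpr, the regulatory subunit of pyruvate dehydrogenase phosphatase, with 5.49 to 12.1 FPKM in AAV-FGF17 hearts and 11.0 to 16.1 FPKM in control hearts (log2 change -0.51, or -0.32 without control hearts 2 and 3; unadjusted limma p of 0.0421, adjusted p = 0.495). Pcx, pyruvate carboxylase, had 3.21 ± 0.993 FPKM in AAV-FGF17 hearts and 5.85 ± 3.14 FPKM in control hearts. Pdk4, the kinase of the complex induced by fasting and fatty acids, had 92.1, 52.8, 85.2 and 131 FPKM in AAV-FGF17 hearts, against 83.1, 115, 60.7 and 81.4 FPKM in control hearts, a log2 change of 0.05. Slc16a3, the lactate exporter of glycolytic cells, was not listed.

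Of 19 other glycogen genes, 3 were lower at an unadjusted p under 0.05, against 7.98% of all genes tested. Pygl, liver-type phosphorylase, had 0.905, 0.534, 1.14 and 0.854 FPKM in AAV-FGF17 hearts, against 1.20, 2.05, 2.56 and 1.29 FPKM in control hearts, all above the AAV-FGF17 hearts (log2 change -0.56; unadjusted limma p of 0.00982, adjusted p = 0.495). The mean of Pygl in AAV-FGF17 hearts was 0.859 FPKM, so it reached the 1 FPKM filter only through the control hearts. Without control hearts 2 and 3 it averaged 0.988 FPKM and was not tested. Phkg1, the muscle catalytic subunit of phosphorylase kinase, had 3.82, 2.29, 3.71 and 2.11 FPKM in AAV-FGF17 hearts, against 3.98, 4.94, 8.21 and 4.04 FPKM in control hearts, again without overlap (log2 change -0.64, or -0.36 without control hearts 2 and 3; unadjusted limma p of 0.0189, adjusted p = 0.495). The other lower gene, Stbd1, which tethers glycogen to membranes, had 3.87 ± 0.264 FPKM in AAV-FGF17 hearts and 4.998 ± 0.570 FPKM in control hearts, without overlap (log2 change -0.30, or -0.33 without control hearts 2 and 3). Stbd1 is named because of its values.

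Of 14 genes of the pentose phosphate and hexosamine branches, 1 was lower and 0 higher. It was Tkt, transketolase, with 2.70 ± 0.604 FPKM in AAV-FGF17 hearts and 4.37 ± 1.18 FPKM in control hearts (SD; log2 change -0.53, or -0.29 without control hearts 2 and 3; unadjusted limma p of 0.0156), and Pgls followed with 2.11 ± 0.212 FPKM in AAV-FGF17 hearts and 3.40 ± 1.56 FPKM in control hearts. Of 28 regulators, 1 was lower, where 7.98% of all genes tested were, and 0 were higher. It was Prkag2, a gamma subunit of AMP-activated kinase whose human mutations cause glycogen storage in the heart, with 4.08, 2.70, 3.75 and 2.59 FPKM in AAV-FGF17 hearts, against 4.71, 4.56, 6.09 and 4.17 FPKM in control hearts. Its groups did not overlap (log2 change -0.47, or -0.36 without control hearts 2 and 3; unadjusted limma p of 0.0141, adjusted p = 0.495). Insr, the insulin receptor, had 6.94 ± 3.07 FPKM in AAV-FGF17 hearts and 10.5 ± 2.67 FPKM in control hearts. Txnip, which restrains glucose uptake and is induced by glucose, had 60.5 ± 22.1 FPKM in AAV-FGF17 hearts and 61.7 ± 15.2 FPKM in control hearts.

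Markers of other cells were read beside these genes. Of 8 skeletal muscle markers, Myh1, Myh2, Myh4 and Actn3 were not listed, and the others summed to 2.57 to 3.81 FPKM in AAV-FGF17 hearts and 3.24 to 7.71 FPKM in control hearts. The 6 white adipocyte markers summed to 36.1, 44.2, 124 and 30.1 FPKM in AAV-FGF17 hearts, against 99.8, 95.0, 249 and 98.9 FPKM in control hearts, and 4 of 5 tested were lower at an unadjusted p under 0.05. Heart 3 had the highest of these sums in each group, while for Pfkfb3 it was the highest AAV-FGF17 heart and the lowest control heart. The 5 atrial markers summed to 1911, 556, 1871 and 857 FPKM in AAV-FGF17 hearts, against 2240, 1370, 3055 and 2260 FPKM in control hearts, and 2 of 5 were lower at that limit. Smooth muscle markers summed to 148, 76.8, 131 and 98.7 FPKM in AAV-FGF17 hearts, against 146, 186, 213 and 149 FPKM in control hearts, and 3 of 4 were lower at that limit.

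Fibroblast marker sums did not overlap, at 139 to 171 FPKM in AAV-FGF17 hearts and 117 to 135 FPKM in control hearts. Dcn made up most of these sums, at 97.5 to 116 FPKM in AAV-FGF17 hearts and 68.7 to 91.85 FPKM in control hearts. It alone of the 5 did not overlap, where 0.998% of all genes tested were above without overlap. Of the 5 genes 2, Dcn and Lum, were higher at an unadjusted p under 0.05. Col1a1 went the other way with a log2 change of -0.37, and Pdgfra and Tcf21 had 0.12 and 0.24. Brown adipocyte markers, of which Elovl3 was not listed, summed to 256 to 324 FPKM in AAV-FGF17 hearts and 280 to 416 FPKM in control hearts. Cox8b made up most of these sums, at 226 to 282 FPKM in AAV-FGF17 hearts and 223 to 336 FPKM in control hearts. It was highest in control hearts 2 and 3, as all 8 cardiomyocyte markers were, and its log2 change was -0.15. Of the 3 genes 2, Ucp1 and Cidea, were lower without overlap, where 4.64% of all genes tested were. Endothelial markers summed to 92.5 to 120 FPKM in AAV-FGF17 hearts and 122 to 158 FPKM in control hearts, and 2 of 5, Pecam1 and Cdh5, were lower at that limit. Erythroid markers summed to 929 to 1362 FPKM in AAV-FGF17 hearts, against 1238 and 1138 FPKM in control hearts 2 and 3 and 675 and 651 FPKM in control hearts 1 and 4, and 1 of 5 was higher with all hearts and 5 of 5 without control hearts 2 and 3, where 2.26% of all genes were higher. Macrophage markers summed to 17.8 to 30.1 FPKM in AAV-FGF17 hearts and 19.1 to 25.3 FPKM in control hearts, with 0 of 4 called at that limit. Without control hearts 2 and 3, 2.39% of all genes were lower at an unadjusted p under 0.05, and all counts of that fit rest on control hearts 1 and 4 alone as controls. Of the markers, 1 of 5 white adipocyte, 0 of 5 atrial and 0 of 4 smooth muscle genes were then lower. So were 2 of 3 brown adipocyte and 1 of 5 endothelial genes, and 2 of 5 fibroblast genes were higher. With all hearts, 0 of these marker genes passed the adjusted threshold by limma, and 1.36% of all genes tested were higher and 7.98% lower at an unadjusted p under 0.05. The part of these cells in the values of the 38 genes was not tested.

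RefSeq gave 57 promoters for 37 of the 38 genes, and the share with each motif in the 250 bases before the start was counted beside 32851 promoters in all. The hypoxia response core was present in 70.2% of the 57 promoters and 38.6% of all, the GC box in 50.9% and 32.7%, the E-box in 10.5% and 6.02%, and the estrogen-related receptor site in 3.51% and 4.08%. Every E-box also counts as a hypoxia response core, since CACGTG contains ACGTG. The promoters were not matched for base composition or expression level, and some windows of the same gene overlap, as for Eno1 and Aldoa. The shares therefore do not show that a motif is particular to these genes. The hypoxia core was found for 31 of the 37 genes, among them Hk1, Pfkfb3 and Pkm, with negative log2 changes, and Gapdh, with a positive one.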

How the data were processed

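RNA of 8 heart samples, 4 per group, was taken up in Trizol and sequenced with standard Illumina preparation, according to the labels. StringTie 1.3.3, HISAT2 2.1.0, cutadapt 1.17, FastQC 0.11.7 and the GRCm38 build are named in the submitters' processing notes. The authors deposited FPKM, a value for each gene in each library, per the file headers. Every gene listed reached a mean of 0.501 FPKM in 1 or both groups. Depth is unknown: a search for whole-read steps in 1135 genes with 1 transcript reached a score of 0.155, where 1.0 means all whole, so the spread between hearts gives the precision. The labels do not say that samples are separate animals, and p-values then measure the spread between these samples. Columns were matched to sample titles, and 0 were left unassigned.

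Genes averaging 1 FPKM or more were compared on log2(FPKM + 1) in R 4.3.3 by limma 3.58.1, using a variance trend, no covariates and Benjamini-Hochberg adjustment at 0.05. A fold change on this scale understates the change of low genes. Log2 changes are as fitted unless given relative to the median gene. Ratios of FPKM without a pseudocount were compared by two-sided exact permutation tests, adjusted over 18. The fit was tested on simulated data. The 38 genes and all lists were chosen with earlier results of these data known. Values in all libraries are given for the 2 most abundant genes and the 3 of smallest p per step. Of each other list the 2 genes of smallest p are named, with Pdk4, Txnip and Slc16a3. Some genes of these lists are not reported here. Hearts of the same number were not treated as pairs, and the correlations of same-numbered deviations were 0.01, 0, 0.02 and -0.11. Differently numbered hearts were not compared in this way, so these values cannot exclude a pairing. Coordinates of 36 of the 38 genes equal those of GENCODE M21, where exons of another gene overlap 15 of them. Pseudogene matches were found with BLAST 2.17.0 among 14420 pseudogene transcripts, and 12 of the 38 genes had 1 or more. Alternatives were another pseudocount and filter, other scalings, weights, a replicate block, and leaving out hearts.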

Additional observations from a re-analysis of the deposited data

Results flagged for a closer look

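In 8 of 76 groups of 4 hearts, 2 groups for each of the 38 genes, 1 heart stood further from the others than Dixon's 95% value of 0.829 allows, where chance gives about 1 in 20. In AAV-FGF17 hearts these were heart 3 for Pfkfb3, highest at 2.799 FPKM, heart 2 for Mpc1, lowest at 57.6 FPKM, and heart 4, highest for Pgam2 at 369 FPKM, for Pdhb at 108.6 FPKM and for Ugp2 at 131.5 FPKM. In control hearts all 3 were heart 2, highest for Pfkp at 6.84 FPKM and for Phkb at 6.78 FPKM and lowest for Pgam1 at 20.9 FPKM.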

How the results depend on the processing

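None of the 38 genes passed the adjusted threshold under the 17 alternatives run, of which the filter at 5 FPKM tested 35 of them. In every alternative that tested them, 18 of the 38 kept the sign of their log2 change. Over all genes, 4 higher and 1 lower passed with array quality weights, 5 higher and 1 lower without control hearts 2 and 3, and 0 to 1 higher and 0 to 3 lower with 1 heart left out. Among the 38, 2 were lower at an unadjusted p under 0.05 with a pseudocount of 0.1, against 8.03% of all genes. Median-of-ratios scaling gave 1 higher and 0 lower, against 4.6% and 3.89% of all genes. Scaling to the nuclear sum gave 0 lower, against 3.18%, and array quality weights 2 lower, against 5.17%. Without control hearts 2 and 3 there were 1 higher and 1 lower, against 2.26% and 2.39%. With 1 heart left out the counts ranged over 0 to 2 higher and 0 to 9 lower. The shares of all genes then ranged over 0.815% to 2.23% higher and 3.23% to 14.9% lower. Control hearts 1 and 4 were the most alike of all 28 pairs over the 38 genes, with a median difference of 0.048 on the log2 scale. Taken as 1 sample, an alternative added after seeing the data, they gave 1 higher (Gapdh) and 8 lower (Gpi1, Hk1, Hk2, Ldhb, Pfkl, Pfkm, Pgam2 and Pkm), where 1.93% of all genes were higher and 14.6% lower. The median change of the 38 was -0.039 with scaling to the nuclear sum, -0.061 with array quality weights and -0.03 without control hearts 2 and 3, or -0.009 relative to the median gene in that last case. The difference in summed share was -0.34 percentage points when taken of all FPKM with all 8 hearts. Taken of nuclear FPKM without control hearts 2 and 3, it was -0.02. Where direction depended on the setting, 13 genes changed sign without control hearts 2 and 3, 8 with array quality weights, 6 with scaling to the nuclear sum and 2 (Dlat and Gbe1) with median-of-ratios scaling. The cause of these shifts was not tested.

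With the replicate number as a block, 1 gene was higher (Gapdh) and 2 lower (Hk1 and Pfkm) at an unadjusted p under 0.05, where 1.34% of all genes were higher and 8.17% lower. No label says that the numbers pair the hearts. Ratios with the block or with hearts left out were compared as values, with no test. Depth is unknown, so limits of detection for the low genes Pfkfb3, Pfkfb1 and Slc2a1 could not be set.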

Other observations

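Over the 38 genes, control hearts 1 and 4 resembled the AAV-FGF17 hearts more than they did control hearts 2 and 3. AAV-FGF17 heart 2 and control heart 4 differed by a median of 0.0837 on the log2 scale and AAV-FGF17 heart 3 and control heart 1 by 0.0878, while control hearts 1 and 2 differed by 0.455 and control hearts 1 and 3 by 0.537. Pfkfb3 was the gene of largest difference in the closest of these pairs, at 3.45 on the log2 scale between AAV-FGF17 heart 2 and control heart 4. Fgf17 had 9.59 and 9.86 FPKM in control hearts 1 and 4 and 1.43 and 0.560 FPKM in control hearts 2 and 3. The mitochondrial share, the level of Fgf17 and most glycolysis genes divide the control hearts in the same way, and no label gives a batch for them.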
